A study of Mus musculus with 6 samples.

Results

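Colonies grown from the embryonic gonad were compared with cells sorted from the newborn testis on 4 single-colour (Cy5) microarrays, 2 per group. For the PGC colonies, all gonadal cells of 67 ICR embryos at E11.5 were plated on laminin (200 ng/cm2) in a medium with epidermal growth factor (EGF, 10 ng/ml) and kept for 7 days in 5% O2, after which colonies were picked for RNA. For the sorted cells, testicular cells of 100 ICR mice, newborn to P2, were tagged with an antibody against CD49f, the integrin subunit α6 encoded by Itga6, and drawn out on a magnetic column without culture. Their labels state physiological hypoxia and no oxygen value. A further group, GSC colonies, came from the testes of 80 ICR mice of the same postnatal age and was cultured as the PGC colonies were, and its 2 arrays entered the same fit. The labels give PGC as primordial germ cells and GSC as glandular stem cells, and they name no genotype, transgene or sex. Both kinds of colony were started from unsorted cells, so neither was chosen by a germ cell marker before culture. Stage, tissue, culture, picking and sorting differ together between PGC colonies and sorted cells and cannot be told apart. Animals were pooled, and whether both arrays of a group hold separate pools is not stated in the labels, so p-values measure the spread between arrays, which may be technical.

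The comparison covers all probes with 1 gene symbol, which are 21876 of 26423 probes and stand for 19084 symbols. A gene was represented by its brightest probe and tested when at least 2 of the 6 arrays reached the 30th percentile of their array, which left 15459 genes. Levels below are normalized log2 intensities. Differences are in log2 units and carry the SE of the fit, always from 2 arrays in each group. The test was limma's, a gene counts as called where its p after Benjamini-Hochberg adjustment was under 0.05, and every adjusted p below is of that kind. Between PGC colonies and sorted cells 7111 genes (46%) were called, 3517 higher (22.8%) and 3594 lower (23.2%) in the colonies, and 3085 of them (20%) differed at least 2-fold. The 2 groups did not overlap for 10992 genes (71.1%), and the median difference of all genes was -0.02. Without normalization between arrays 80.5% of called genes were higher in PGC colonies, against 49.5% with it, and the median gene moved to 0.42; with median centring 55.0% were higher. Median deposited intensities were 587 and 541 on the PGC colony arrays and 393 and 406 on the sorted arrays. Across genes the PGC colony arrays correlated with each other at r = 0.989 and with the sorted arrays at 0.875 to 0.880.

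In the mouse, primordial germ cells leave the base of the allantois and migrate into the genital ridges, where they erase most DNA methylation, imprints included, and go on dividing. Alkaline phosphatase, Pou5f1, Kit and Dppa3 mark them on the way, and Ddx4 and Dazl come on once they have reached the gonad. The genital ridge forms beside the mesonephros from coelomic epithelium and mesenchyme, and a dissected gonad readily carries some of that tissue. In the newborn testis the germ cells, then gonocytes, lie in cords of Sertoli cells ringed by peritubular myoid cells, with Leydig cells, vessels and macrophages between the cords. Integrin α6 sits on spermatogonia and also on epithelial and endothelial cells that rest on a basement membrane.

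The genes furthest above the sorted cells in PGC colonies included genes of matrix, growth factor receptors and the response to starvation. Ccn4, a matricellular Wnt target, read 14.32 and 14.27 in PGC colonies against 7.96 and 8.03 in sorted cells, a difference of 6.30 ± 0.10 (adjusted p = 3.31e-06). Pdgfrb, the PDGF receptor of pericytes and fibroblasts, read 14.58 and 14.73 in PGC colonies against 8.49 and 8.40 in sorted cells and rose by 6.21 ± 0.11 (adjusted p = 3.56e-06). In both cases the colony arrays lay together and far above the sorted pair. Col6a3 (collagen VI) rose by 6.00 ± 0.11, Fn1 (fibronectin) by 5.75 ± 0.14 and Egfr, the receptor of the EGF in the colony medium, by 5.58 ± 0.13. Trib3 and Chac1, both induced when amino acids run short or proteins misfold, rose by 5.72 ± 0.12 and 5.62 ± 0.12, and Aldh1l2, a mitochondrial folate enzyme, by 5.92 ± 0.19. Where the dimmer group had both readings below its arrays' 30th percentile (7.82 on the normalized scale), only a lower bound of the fold is given, since no detection calls were used here. Prkg2, a cGMP-dependent kinase, was at least 55.3-fold higher, Fibin, a secreted fin bud initiation factor, at least 56.7-fold, Chodl, a membrane lectin, at least 50.2-fold, and Rspo3, a secreted amplifier of Wnt signals, at least 33.5-fold. These 12 genes were also high in GSC colonies, where Ccn4 read 13.93 and 13.93 and Pdgfrb 14.09 and 14.07.

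The genes furthest below the sorted cells included products known from Sertoli cells, macrophages and vessels. Cst12, a cystatin-like gene of Sertoli cells, read 8.31 and 8.49 in PGC colonies, 12.56 and 12.66 in GSC colonies and 17.02 and 16.94 in sorted cells. It fell by 8.58 ± 0.12 in PGC colonies (adjusted p = 3.22e-06), and the GSC colonies stood midway, 4.21 ± 0.12 above the PGC colonies (adjusted p = 1.93e-05). Its relative Cst9 read 10.03 and 10.18 in PGC colonies, 9.34 and 8.60 in GSC colonies and 16.81 and 16.88 in sorted cells and fell by 6.74 ± 0.24 (adjusted p = 6.88e-06), with the PGC colonies here above the GSC colonies. Slc38a5, an amino acid carrier, fell by 6.65 ± 0.10, and of the less studied genes Exoc3l2 fell by 6.06 ± 0.11, Plbd1 fell by 5.96 ± 0.19, Tmem114 fell by 5.85 ± 0.13 and Rasl12 fell by 5.56 ± 0.16. Lyve1, a hyaluronan receptor of lymphatic vessels and tissue macrophages, was at least 55.7-fold lower. The platelet and macrophage chemokine Pf4 was at least 59.3-fold lower, Wfdc10, a small protease inhibitor-like gene, at least 62.8-fold, and S100a9, a neutrophil calcium-binding protein, at least 35.4-fold. The neutrophil chemokine Cxcl2 read 7.38 and 7.94 in PGC colonies against 14.13 and 14.27 in sorted cells, so that one colony array lay under the percentile.

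Among the cell type lists, connective tissue genes had the highest median. The fibroblast and mesenchyme list had 24 rises and 2 falls among 29 measured genes, with a median difference of 3.47. Their mean level was 13.50 and 13.56 on the PGC colony arrays, 13.79 and 13.78 on the GSC colony arrays and 10.46 and 10.44 on the sorted arrays. Besides Pdgfrb, Col6a3 and Fn1, the surface protein Thy1 read 14.26 and 14.49 in PGC colonies against 9.41 and 9.48 in sorted cells and rose by 4.93 ± 0.12 (adjusted p = 3.86e-06). Pdgfra, the PDGF receptor of interstitial mesenchyme, rose by 3.73 ± 0.11 and remained 1.05 ± 0.11 below the GSC colonies (adjusted p = 0.00196). In bulk RNA such as this, fewer cells of a type and less RNA per cell cannot be told apart, and the same holds for gains. Dpt, the matrix protein dermatopontin, lay at 7.78 and 8.03 in PGC colonies, 9.13 and 8.97 in GSC colonies and 8.33 and 8.42 in sorted cells and so below the sorted cells in one kind of colony and above them in the other. Its fall of 0.47 ± 0.13 in PGC colonies (adjusted p = 0.0273) was lost in 5 of the 16 other settings in which it was measured, among them without PGC colony replicate 1, at -0.35, and without sorted replicates 1 or 2, at -0.53 and -0.43. Mmp2, the gelatinase of stroma, read 14.73 and 15.05 in PGC colonies against 15.57 and 15.26 in sorted cells, and its fall of 0.52 ± 0.16 (adjusted p = 0.0376) was lost without PGC colony replicate 1 or sorted replicate 1, at -0.36 and -0.37, with median centring, at -0.32, with the replicate number as a block and at a threshold of 0.01. Without normalization between arrays it turned to 0.08.

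Smooth muscle genes were split. Of 15 measured genes of peritubular myoid cells and smooth muscle 8 rose and 4 fell (median 1.16; 9 rises and 1 fall without normalization between arrays), where GSC colonies had 10 higher and 1 lower than the sorted cells, against 22.5% and 24.5% of all genes (47.1% called). Cald1 (caldesmon) rose by 3.79 ± 0.20, the pericyte proteoglycan Cspg4 by 3.21 ± 0.11 and smooth muscle actin, Acta2, by 3.10 ± 0.10. Myh11, the smooth muscle myosin heavy chain, read 8.43 and 8.20 in PGC colonies, 12.02 and 11.90 in GSC colonies and 9.11 and 9.003 in sorted cells, below the sorted pair in PGC colonies and far above it in GSC colonies. Its fall of 0.74 ± 0.13 (adjusted p = 0.00388) was -0.33 and no longer called without normalization between arrays, and PGC colonies lay 3.65 ± 0.13 below GSC colonies (adjusted p = 3.08e-05). Mylk, the kinase that activates smooth muscle myosin, read 13.18 and 12.88 in PGC colonies, 14.80 and 14.72 in GSC colonies and 14.46 and 14.15 in sorted cells and fell by 1.28 ± 0.16 (adjusted p = 0.000912), while the GSC colonies and sorted cells were 0.46 ± 0.16 apart and did not pass (adjusted p = 0.0562).

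**Figure D1:**
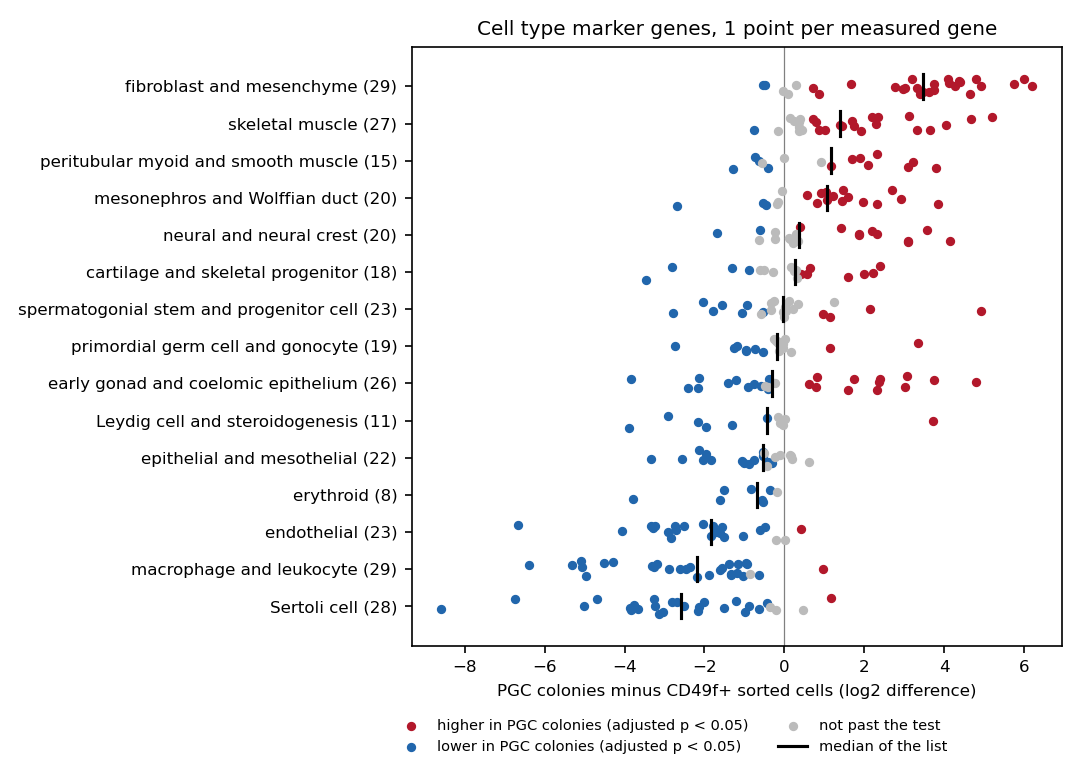
Fitted log2 difference between PGC colonies and CD49f+ sorted cells for each measured gene of the 15 cell type lists, 1 point per gene, with red and blue points past the test, grey points not past it, and a black bar at the list's median; the number after each name counts its measured genes. The fibroblast list lies furthest right with a median of 3.47 and the Sertoli list furthest left at -2.59; the medians of the spermatogonial, germ cell and early gonad lists change sign without normalization between arrays, and differences of genes under the 30th percentile in one group understate the change.

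Many skeletal muscle genes were higher in PGC colonies than in both the sorted cells and the GSC colonies. The sarcomere, the contractile unit of striated muscle, is built of actin, myosin and troponin chains, and its embryonic and fetal chains are switched on by myogenic factors such as myogenin when myoblasts fuse. Of 27 measured genes on the list 18 rose and 1 fell in PGC colonies, with a median of 1.41. In GSC colonies 3 were higher and 5 lower than in sorted cells, with a median of 0.08. Between both kinds of colony 17 of the 27 were higher in PGC colonies, against 7.08% of all genes (15.1% called in either direction). The mean level of the list was 10.49 and 10.60 on the PGC colony arrays, 9.24 and 9.08 on the GSC colony arrays and 8.86 and 8.97 on the sorted arrays, so the groups did not overlap.

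The promoters of 4 of the genes that rose are shown because they hold a match to an element through which serum response factor (the CArG box) or MEF2 factors act in muscle. Each line gives the 250 bases before the start of the first RefSeq transcript in GRCm38.p6, read 5′ to 3′ on the gene's own strand, with the match in capitals. The window is chr8:123894776-123895025 (minus strand) for Acta1, chr2:114052876-114053125 (minus strand) for Actc1, chr11:67276874-67277123 (plus strand) for Myh8 and chr12:37108290-37108539 (plus strand) for Meox2.
Acta1: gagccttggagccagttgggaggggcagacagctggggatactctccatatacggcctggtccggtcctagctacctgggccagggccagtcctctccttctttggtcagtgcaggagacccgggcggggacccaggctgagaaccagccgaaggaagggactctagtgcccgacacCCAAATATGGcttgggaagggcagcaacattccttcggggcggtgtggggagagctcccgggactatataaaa
Actc1: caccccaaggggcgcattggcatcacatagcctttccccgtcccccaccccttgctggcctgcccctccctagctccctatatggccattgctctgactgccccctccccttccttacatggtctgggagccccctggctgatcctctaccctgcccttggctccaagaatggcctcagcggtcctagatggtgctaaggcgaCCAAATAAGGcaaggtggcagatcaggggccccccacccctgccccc
Myh8: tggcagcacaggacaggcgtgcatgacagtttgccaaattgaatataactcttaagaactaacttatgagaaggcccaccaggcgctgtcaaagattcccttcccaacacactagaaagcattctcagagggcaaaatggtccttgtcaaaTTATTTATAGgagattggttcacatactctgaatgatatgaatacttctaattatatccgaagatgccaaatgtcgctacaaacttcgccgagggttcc
Meox2: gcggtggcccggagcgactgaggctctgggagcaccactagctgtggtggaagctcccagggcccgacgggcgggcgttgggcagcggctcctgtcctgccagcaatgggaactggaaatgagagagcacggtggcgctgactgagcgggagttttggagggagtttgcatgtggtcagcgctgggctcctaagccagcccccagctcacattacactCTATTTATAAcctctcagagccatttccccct
The CArG matches of Acta1 and Actc1 begin 73 and 47 bases before the start. The MEF2 matches of Myh8 and Meox2 begin 99 and 32 bases before it, and that of Meox2 also has the letters and the place of a TATA box. All patterns were searched on both strands. The CArG box was found in 1.4% of 27025 promoters of this length and in 2 of the 16 matched promoters of the 18 genes that rose, and the MEF2 element in 3.01% and again in 2 of 16. The E-box of myogenic factors (CANNTG) was in 66.0% of all promoters and 14 of the 16, and in the 4 shown no E-box overlaps the capitals. A match is a description of letters and was not tested as a site.

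Structural genes came first by size. Tnnt2, a troponin T of heart and embryonic muscle, read 12.55 and 12.78 in PGC colonies, 11.31 and 11.16 in GSC colonies and 7.49 and 7.47 in sorted cells and was at least 28.7-fold higher in PGC colonies than in sorted cells (adjusted p = 3.86e-06). Myh3, the embryonic myosin heavy chain, read 12.14 and 11.74 in PGC colonies, 7.93 and 8.04 in GSC colonies and 6.82 and 7.69 in sorted cells and was at least 17.3-fold higher (adjusted p = 4.94e-05). For Tnnt2 the GSC colonies were high as well, whereas for Myh3 they did not pass against the sorted cells (adjusted p = 0.0871). Actc1, the cardiac actin that fetal skeletal muscle also uses, read 12.01 and 11.84 in PGC colonies, 8.27 and 6.85 in GSC colonies and 7.38 and 8.37 in sorted cells, a rise of 4.05 ± 0.50 (adjusted p = 0.000913). Myl1, an alkali light chain of fast muscle, read 13.25 and 13.10 in PGC colonies, 9.64 and 9.59 in GSC colonies and 9.58 and 9.45 in sorted cells and rose by 3.66 ± 0.11 (adjusted p = 5.54e-06). In both genes the PGC colony arrays stood above the other 4 arrays, which for Actc1 were themselves spread from 6.85 to 8.37. Acta1, the actin of adult skeletal muscle, read 10.87 and 11.12 in PGC colonies, 7.27 and 7.17 in GSC colonies and 7.68 and 7.69 in sorted cells, with no overlap between PGC colonies and either other group. Only its PGC colony arrays were above the 30th percentile, so it passed the filter through that group alone. Myh8, the perinatal myosin heavy chain, read 10.21 and 10.62 in PGC colonies, 7.79 and 7.35 in GSC colonies and 8.56 and 8.81 in sorted cells and rose by 1.73 ± 0.21 (adjusted p = 0.000833), although both GSC colony arrays were under the 30th percentile. Acta1 was chosen for its promoter after its values were seen, and Myog and Des, named next, were also chosen after theirs.

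Regulators of muscle identity were mixed. Meox2, a homeobox gene of somites and limb muscle, read 13.16 and 13.18 in PGC colonies, 7.91 and 7.55 in GSC colonies and 10.05 and 10.05 in sorted cells. It rose by 3.12 ± 0.14 in PGC colonies (adjusted p = 1.58e-05) and fell in GSC colonies (adjusted p = 4.2e-05), where 1 array lay under the 30th percentile. Myog, which encodes myogenin, read 11.06 and 11.11 in PGC colonies, 9.21 and 9.29 in GSC colonies and 9.33 and 9.003 in sorted cells and rose by 1.92 ± 0.14 (adjusted p = 8.86e-05). Myod1, the factor that commits myoblasts, read 8.68 and 8.87 in PGC colonies against 8.56 and 8.24 in sorted cells and did not pass (adjusted p = 0.138), except without normalization between arrays, at 0.76. Pax3 of muscle progenitors differed by -0.16 ± 0.11 and Myf6 by 0.14 ± 0.14, without passing (adjusted p = 0.303 and 0.475), although Myf6 passed without normalization between arrays, at 0.51. Des (desmin) rose by 1.70 ± 0.15 but was 3.32 ± 0.15 higher still in GSC colonies. The member that fell, the creatine kinase gene Ckm, read 7.25 and 7.33 in PGC colonies against 8.08 and 8.02 in sorted cells, at least 1.18-fold lower.

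**Figure D2:**
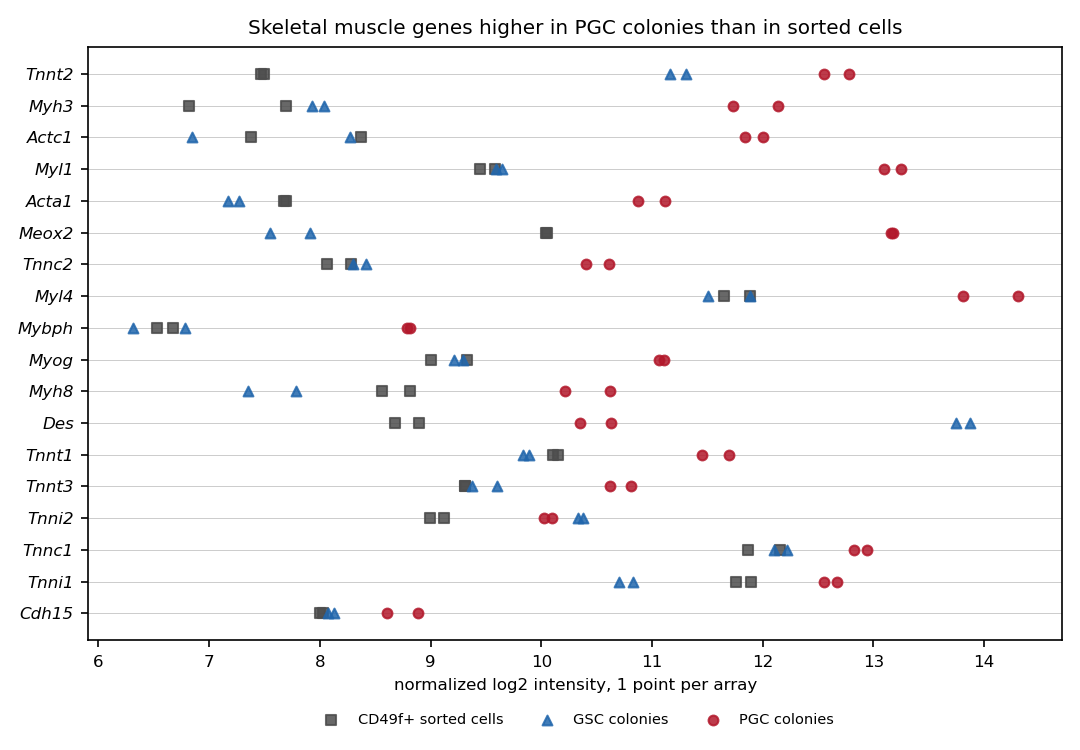
Normalized log2 intensity of the 18 skeletal muscle genes that were higher in PGC colonies than in CD49f+ sorted cells, 1 point per array and 2 arrays per group. Red circles (PGC colonies) lie right of the grey squares (sorted cells) in every gene, and the blue triangles (GSC colonies) lie with the squares for Myl1 and Myog, left of them for Meox2 and Acta1, and right of the circles in 2 genes, among them Des.

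Neural and neural crest genes also rose in part. Of 20 measured, 10 rose and 2 fell (median 0.38; 6 rises and 2 falls without PGC colony replicate 1), and 10 were higher in PGC than in GSC colonies. Over all genes 7.08% were higher in PGC than in GSC colonies. Gap43, a protein of growing axons, read 12.82 and 12.998 in PGC colonies, 10.35 and 10.07 in GSC colonies and 8.77 and 8.74 in sorted cells. It rose by 4.15 ± 0.14 (adjusted p = 5.88e-06). Nefm, a neurofilament chain, rose by 3.58 ± 0.21 and the adhesion molecule Ncam1, shared by nerve, muscle and mesenchyme, by 3.09 ± 0.14. Sox2, a factor of neural progenitors and pluripotent cells, read 9.44 and 9.77 in PGC colonies, 6.46 and 6.59 in GSC colonies and 6.53 and 6.51 in sorted cells. Its PGC colony arrays were the only ones above the 30th percentile, so it passed the filter through that group alone. It was at least 3.45-fold higher than in sorted cells, which is a description and no independent support. Elavl4, an RNA-binding protein of neurons, fell by 1.70 ± 0.13 (adjusted p = 0.000125), and Tubb3, the neuronal tubulin, by 0.62 ± 0.11, a call lost without normalization between arrays, where the difference was -0.08. The glial markers Gfap and Sox10 did not pass, at 0.15 ± 0.13 and 0.13 ± 0.12 (adjusted p = 0.378 and 0.463), but did without normalization between arrays, at 0.52 and 0.63.

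Cartilage genes went both ways, with 7 of 18 higher and 4 lower (median 0.27), or 11 rises and 4 falls without normalization between arrays. Over all genes 22.8% were higher and 23.2% lower, and the 4 falls were near the latter share. Col2a1, the main collagen of cartilage, read 10.14 and 10.37 in PGC colonies, 8.47 and 8.19 in GSC colonies and 8.34 and 8.17 in sorted cells and rose by 2.00 ± 0.15 (adjusted p = 0.000109), while GSC colonies were 0.07 ± 0.15 from the sorted cells (adjusted p = 0.724). Pth1r, the parathyroid hormone receptor, rose by 2.39 ± 0.14, and Col11a1, a minor fibrillar collagen, by 2.23 ± 0.10. Col9a2, a collagen IX chain, fell by 3.47 ± 0.14 and the chondromodulin gene Cnmd by 1.30 ± 0.17. Alpl, the tissue-nonspecific alkaline phosphatase of both bone and primordial germ cells, read 9.25 and 9.63 in PGC colonies, 9.78 and 9.69 in GSC colonies and 12.12 and 12.39 in sorted cells and fell by 2.81 ± 0.17 (adjusted p = 4.14e-05), and its colony arrays lay well below the sorted pair.

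Sertoli cell genes were the lowest of the cell type lists. Of 28 measured genes 24 fell and 1 rose, with a median of -2.59, and the mean level was 11.60 and 11.61 on the PGC colony arrays, 11.81 and 11.78 on the GSC colony arrays and 14.19 and 14.14 on the sorted arrays. Besides Cst12 and Cst9, the embryonic testis gene Etd read 9.25 and 9.29 in PGC colonies against 14.40 and 14.18 in sorted cells and fell by 5.02 ± 0.13 (adjusted p = 4.02e-06). The gene that rose, Kitl, encodes the ligand of Kit and was at least 2.05-fold higher, at 8.74 and 8.98 in PGC colonies against 7.69 and 7.67 in sorted cells. Leydig and steroid genes were lower in 6 of 11 cases and higher in 1 (median -0.44), or 3 rises and 5 falls with a median of -0.04 without normalization between arrays. Cyp17a1, the enzyme at the branch to androgens, read 10.67 and 10.43 in PGC colonies, 11.996 and 11.94 in GSC colonies and 14.56 and 14.31 in sorted cells and fell by 3.88 ± 0.14 (adjusted p = 7.44e-06), further than in GSC colonies by 1.42 ± 0.14. Hsd17b3, which forms testosterone, fell by 2.91 ± 0.12, and Nr5a1 (steroidogenic factor), shared by Sertoli and Leydig cells, by 2.16 ± 0.12. The rise was Thbs2, a thrombospondin of fibroblasts, at least 8.58-fold higher.

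Vessel, blood and epithelial genes fell as well. Of 23 endothelial genes 20 fell and 1 rose (median -1.83), and mean levels were 9.82 and 9.84 on the PGC colony arrays, 10.37 and 10.26 on the GSC colony arrays and 11.93 and 11.93 on the sorted arrays. Cdh5, the cadherin of endothelial junctions, read 8.72 and 8.67 in PGC colonies, 9.93 and 9.91 in GSC colonies and 12.01 and 12.07 in sorted cells and fell by 3.35 ± 0.10 (adjusted p = 5.12e-06). Cldn5, the claudin of vessels, fell by 4.05 ± 0.71, and its colony arrays were far apart at 8.22 and 9.15 and, in GSC colonies, 10.22 and 7.94. Plvap, a protein of fenestrated vessels, was the exception with a rise of 0.42 ± 0.11 (adjusted p = 0.0203), a call lost at a threshold of 0.01, without PGC colony replicate 1, at 0.39, and without sorted replicates 1 or 2, at 0.38 and 0.45. Erythroid genes fell in 7 of 8 cases (median -0.69), but in 3 of 7 when either sorted array was left out and in 4 of 8, with a median of -0.28, without normalization between arrays. Hbb-b1, an adult globin gene, read 6.58 and 6.89 in PGC colonies against 10.53 and 10.51 in sorted cells, at least 6.51-fold lower, the transferrin receptor Tfrc fell by 1.61 ± 0.11, and Gata1, a factor shared by erythroid and Sertoli cells, by 1.50 ± 0.16. Of 22 epithelial and mesothelial genes 14 fell and 0 rose (median -0.54). The list had 0 rises and 9 falls without sorted replicate 1, 1 rise and 9 falls without sorted replicate 2 and 4 rises and 9 falls without normalization between arrays, where the median was -0.08, -0.50 relative to all genes. Krt8, a simple keratin, read 9.63 and 9.83 in PGC colonies against 13.04 and 13.11 in sorted cells and fell by 3.35 ± 0.48 (adjusted p = 0.00173), and the tight junction gene Ocln was at least 5.37-fold lower.

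Of 29 genes marking macrophages and other leukocytes 27 fell and 1 rose (median -2.20), yet 16 of them were higher in PGC than in GSC colonies, against 7.08% of all genes. The mean level of the list was 9.61 and 9.49 on the PGC colony arrays, 8.63 and 8.56 on the GSC colony arrays and 12.07 and 12.06 on the sorted arrays, so the PGC colonies lay between the other groups without overlap. C1qa, a complement chain made by macrophages, read 9.70 and 9.84 in PGC colonies, 8.26 and 6.56 in GSC colonies and 15.07 and 15.10 in sorted cells and fell by 5.31 ± 0.49 (adjusted p = 0.000257), with both PGC colony arrays above both GSC colony arrays (adjusted p = 0.0255). Csf1r, the receptor that keeps macrophages alive, read 8.66 and 8.56 in PGC colonies, 8.00 and 8.10 in GSC colonies and 13.72 and 13.69 in sorted cells and fell by 5.10 ± 0.11 (adjusted p = 3.86e-06). Spi1, the myeloid transcription factor PU.1, was the member that rose, by 0.97 ± 0.13 (adjusted p = 0.00123). One further leukocyte gene, the integrin Itgax of dendritic cells, ran against the list: at 11.84 and 12.01 in PGC colonies, 7.68 and 8.82 in GSC colonies and 8.12 and 8.03 in sorted cells it rose by 3.85 ± 0.34 in PGC colonies (adjusted p = 0.000219). The part of these cell type lists in the process lists below was not tested.

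Most germ cell markers listed did not stand higher in PGC colonies than in the sorted cells. The sorted cells come from the testis and can hold germ cells too, so this comparison cannot check the germ cell label. Of 28 genes listed for primordial germ cells and gonocytes, 27 were on the array and 19 were measured. Of these 2 rose and 7 fell in PGC colonies, against 22.8% and 23.2% of all genes. GSC colonies had 7 higher and 4 lower than the sorted cells, against 22.5% and 24.5% of all genes. The median of -0.18 turned to 0.22 (-0.20 relative to all genes) with arrays left unnormalized, the falls numbered 4 without sorted replicate 2, and mean levels were 9.59 and 9.54 on the PGC colony arrays, 10.12 and 10.10 on the GSC colony arrays and 9.81 and 9.83 on the sorted arrays. Ddx4, the germ cell RNA helicase, read 9.96 and 9.72 in PGC colonies, 10.24 and 10.27 in GSC colonies and 10.10 and 9.89 in sorted cells, so that PGC colony and sorted arrays overlapped, and its difference of -0.16 ± 0.13 did not pass (adjusted p = 0.396). Pou5f1, which encodes OCT4, read 8.26 and 8.16 in PGC colonies, 9.34 and 9.35 in GSC colonies and 8.47 and 8.39 in sorted cells and did not pass either, at -0.22 ± 0.11 (adjusted p = 0.143), although GSC colonies were 0.91 ± 0.11 above the sorted cells (adjusted p = 0.000664). Dazl, an RNA-binding protein that germ cells need in the gonad, read 7.42 and 7.51 in PGC colonies, 10.09 and 10.12 in GSC colonies and 8.39 and 8.91 in sorted cells. Both PGC colony arrays were under the 30th percentile, at least 1.78-fold below the sorted cells (adjusted p = 0.00218), while GSC colonies were 1.45 ± 0.18 above them (adjusted p = 0.00089).

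Kit, the receptor that germ cells need to survive, read 9.05 and 9.22 in PGC colonies, 9.16 and 8.74 in GSC colonies and 10.09 and 10.08 in sorted cells and fell by 0.95 ± 0.16 (adjusted p = 0.00374). Cxcr4, the homing receptor of migrating germ cells, was at least 1.67-fold lower, at 7.68 and 7.58 in PGC colonies against 8.49 and 8.63 in sorted cells. Dnd1, which protects germ cell transcripts, fell by 1.26 ± 0.15, and Sox17, a factor of endothelium and, in humans, of germ cells, was at least 4.82-fold lower. The members that rose were Ifitm3, an interferon-induced membrane protein first used to mark early germ cells, by 3.34 ± 0.12, and Taf7l, a transcription factor subunit, by 1.15 ± 0.15. Mael, a piRNA factor chosen after its values were seen, read 7.94 and 7.96 in PGC colonies, 9.93 and 10.06 in GSC colonies and 8.88 and 8.92 in sorted cells and so ran as Dazl did. The list of spermatogonial stem and progenitor cells had 4 rises and 7 falls among 23 measured genes, against 22.8% and 23.2% of all genes. Its median was -0.02, or 0.35 without normalization between arrays and -0.07 relative to all genes. Those that rose were Thy1, the tetraspanin Cd9 by 2.15 ± 0.13, the integrin chain Itgb1 by 1.13 ± 0.11 and Id4, described further on. The 3 furthest down were Tspan8, at least 3.81-fold, Epcam by 2.04 ± 0.11 and Uchl1 by 1.80 ± 0.15. The antigen of the sort itself, Itga6, read 12.34 and 12.44 in PGC colonies, 11.86 and 11.76 in GSC colonies and 12.26 and 12.10 in sorted cells, and its difference of 0.21 ± 0.12 did not pass (adjusted p = 0.198), except without normalization between arrays, at 0.73. The other probes of Epcam and Itgb1 gave -4.52 and 0.06.

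Of 20 pluripotency genes 5 rose and 5 fell (median -0.04, or 0.34 without normalization between arrays and -0.08 relative to all genes), with 3 rises and 4 falls without PGC colony replicate 2. The 5 rises and 5 falls were near the shares of all genes, 22.8% higher and 23.2% lower. Beside Sox2, the rises were largest for Klf5, at 2.41 ± 0.11, and Myc, at 2.33 ± 0.14, both also expressed in dividing somatic cells. Mycn fell by 2.83 ± 0.15 and Tfcp2l1, a factor of naive stem cells, by 1.03 ± 0.20, or -0.54 with the mean of its probes. Nr0b1, a nuclear receptor of stem cells, Sertoli cells and steroid tissue, fell by 3.83 ± 0.13 (adjusted p = 6.57e-06). Nanog read 9.01 and 8.86 in PGC colonies against 9.13 and 9.05 in sorted cells and did not pass (adjusted p = 0.407).

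Hox genes record position along the body. Of 29 measured 23 rose and 0 fell, with a median of 1.47, and 9 were lower than in GSC colonies, against 7.98% of all genes. Hoxc6 read 12.50 and 12.83 in PGC colonies, 12.93 and 12.80 in GSC colonies and 8.66 and 8.80 in sorted cells and rose by 3.94 ± 0.15 (adjusted p = 8.1e-06), Hoxc8 rose by 3.30 ± 0.11 (2.28 with its other probe), and Hoxc9 was at least 8.40-fold higher. Against GSC colonies the test did not call Hoxc6 or Hoxc8, and Hoxc9 was lower in PGC colonies by 0.70 ± 0.14 (adjusted p = 0.0214). The posterior genes Hoxa10 and Hoxa11, which pattern the reproductive duct and hind limb, differed between them. Hoxa10 read 10.05 and 10.45 in PGC colonies, 13.36 and 13.23 in GSC colonies and 7.47 and 7.19 in sorted cells, at least 5.39-fold above the sorted cells in PGC colonies and 3.05 ± 0.18 below the GSC colonies (adjusted p = 0.000196). Hoxa11 read 9.68 and 9.80 in PGC colonies, 13.18 and 13.11 in GSC colonies and 7.11 and 6.96 in sorted cells, at least 3.77-fold above the sorted cells and 3.41 ± 0.12 below the GSC colonies (adjusted p = 2.85e-05). Hoxb8, chosen after its values were seen, was higher than the sorted cells in PGC colonies by 1.11 ± 0.16 (adjusted p = 0.00169), with GSC colonies 0.18 ± 0.16 from them (adjusted p = 0.396).

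Of 20 genes of the mesonephros and Wolffian duct 14 rose and 3 fell (median 1.06), with mean levels of 10.04 and 10.02 on the PGC colony arrays, 10.32 and 10.24 on the GSC colony arrays and 9.04 and 9.04 on the sorted arrays. Foxc1, a forkhead factor of mesoderm, read 12.18 and 11.58 in PGC colonies, 10.22 and 10.57 in GSC colonies and 8.03 and 8.05 in sorted cells and rose by 3.84 ± 0.22 (adjusted p = 3.69e-05). Of the tubule markers, Cdh16 (kidney cadherin) fell by 2.69 ± 0.10, Lhx1, a LIM homeobox factor, by 0.53 ± 0.13 (adjusted p = 0.0163) and the paired-box factor Pax8 by 0.45 ± 0.11 (adjusted p = 0.0132), while Pax2 differed by -0.19 ± 0.12 (adjusted p = 0.231). The falls of Lhx1 and Pax8 were lost when either sorted array was left out, at -0.48 and -0.58 for Lhx1 and -0.45 and -0.46 for Pax8, at a threshold of 0.01 and without normalization between arrays, and that of Lhx1 also without PGC colony replicate 2, at -0.46. Early gonad genes went both ways, with 12 of 26 higher and 11 lower and a median of -0.31 that became 0.19 without normalization between arrays, -0.23 relative to all genes. Beside Pdgfra, the rises were largest for the mesenchymal nuclear receptors Nr2f1, at 4.80 ± 0.14, and Nr2f2, at 3.07 ± 0.20. Among the falls were genes needed to build the bipotential gonad. Besides Nr0b1 and Nr5a1, Wt1 read 12.37 and 12.59 in PGC colonies, 12.33 and 12.23 in GSC colonies and 14.69 and 14.54 in sorted cells and fell by 2.13 ± 0.13 (adjusted p = 4.16e-05), and Podxl, a sialomucin of coelomic epithelium, fell by 2.42 ± 0.13. PGC colonies read lower for Wt1 and Nr5a1 than sorted cells of the newborn testis, without overlap.

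Imprinted genes are read from 1 parental copy, and many of them drive fetal growth. Of 32 measured 16 rose and 4 fell (median 0.59; 16 rises and 7 falls without PGC colony replicate 1), and 11 were higher in PGC than in GSC colonies. Over all genes 7.08% were higher in PGC than in GSC colonies. Mean levels of the list were 11.79 and 11.80 on the PGC colony arrays, 11.03 and 11.10 on the GSC colony arrays and 10.92 and 10.87 on the sorted arrays. Igf2, the fetal growth factor, read 17.61 and 17.66 in PGC colonies, 13.66 and 13.72 in GSC colonies and 14.61 and 14.50 in sorted cells. It rose by 3.08 ± 0.11 in PGC colonies (adjusted p = 6.59e-06) and fell by 0.87 ± 0.11 in GSC colonies (adjusted p = 0.000864), although the latter call was lost without normalization between arrays. H19, the non-coding RNA beside Igf2 that is read from the other parental copy, read 16.88 and 17.02 in PGC colonies, 14.41 and 14.28 in GSC colonies and 13.04 and 13.19 in sorted cells and rose by 3.83 ± 0.12 (adjusted p = 5.51e-06), with GSC colonies in between. Mest, a growth gene of mesoderm, read 15.23 and 15.27 in PGC colonies, 9.83 and 9.99 in GSC colonies and 12.95 and 13.09 in sorted cells, the PGC colonies highest and the GSC colonies lowest without overlap. Mest rose by 2.23 ± 0.12 in PGC colonies (adjusted p = 2.8e-05) and fell by 3.11 ± 0.12 in GSC colonies (adjusted p = 6.53e-06). Dlk1, a membrane ligand of fetal progenitors, read 14.88 and 15.17 in PGC colonies, 12.53 and 12.52 in GSC colonies and 10.38 and 10.51 in sorted cells and rose by 4.58 ± 0.14 (adjusted p = 4.71e-06), but by 0.46 on its other probe. Ppp1r9a fell by 2.05 ± 0.16 and Nnat (neuronatin) by 1.51 ± 0.12. Gnas fell by 1.67 ± 0.12 on its brightest probe, while its other probes gave 1.65 and -0.05. The arrays measured total RNA of a gene and not which parental copy it came from.

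Other parts of the IGF axis rose beside its ligand: of 24 measured genes 13 rose and 2 fell (median 1.07). The binding proteins, which hold IGF in the matrix or block it, were led by Igfbp5, at 15.54 and 15.84 in PGC colonies, 15.41 and 15.26 in GSC colonies and 10.32 and 10.46 in sorted cells and a rise of 5.30 ± 0.14 (adjusted p = 4.02e-06), and Igfbp6, at 3.12 ± 0.15. Igf2r, the receptor that clears the ligand and is itself imprinted, was named after its values were seen and rose by 2.01 ± 0.11. The signalling receptor Igf1r read 12.34 and 12.53 in PGC colonies against 12.92 and 13.03 in sorted cells and fell by 0.54 ± 0.12 (adjusted p = 0.0118), a call lost at a threshold of 0.01, without sorted replicate 2, at -0.48, and without normalization between arrays, at -0.02. Irs2, an adaptor beneath Igf1r, fell by 2.20 ± 0.13 (adjusted p = 3.63e-05).

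Cell division genes were lower in PGC colonies. Of 29 mitosis genes 26 fell and 0 rose (median -1.90), and mean levels were 10.66 and 10.62 on the PGC colony arrays, 10.67 and 10.86 on the GSC colony arrays and 12.36 and 12.35 on the sorted arrays. Kif23, a kinesin of the dividing midzone, read 11.47 and 11.17 in PGC colonies, 11.66 and 11.56 in GSC colonies and 14.03 and 13.89 in sorted cells and fell by 2.64 ± 0.14 (adjusted p = 2.76e-05). Cenpa, the histone of centromeres, fell by 2.59 ± 0.18 and Cdca3, a trigger of mitotic entry, by 2.42 ± 0.16. Mki67, whose protein is the usual stain for cycling cells, differed by 0.11 ± 0.15 on its brightest probe (adjusted p = 0.584). Its other probe read 10.22 and 10.36 in PGC colonies against 12.38 and 12.24 in sorted cells. That probe differed by -2.02 (adjusted p = 8.68e-05), so the probes of this gene disagree. The gene differed by -0.95 with the mean of its probes, which passed, and by 0.65 without normalization between arrays, which also passed. Of 24 DNA replication genes 18 fell and 1 rose (median -0.64), or 2 rises and 10 falls with a median of -0.17 without normalization between arrays. Cdc45, of the replicative helicase, fell by 1.37 ± 0.19, the polymerase gene Pole by 1.33 ± 0.12 and thymidine kinase, Tk1, by 1.26 ± 0.13. Cyclin E1, Ccne1, which opens S phase, was the member that rose, by 1.67 ± 0.11 (adjusted p = 5.72e-05). GSC colonies had 27 mitosis and 21 replication genes below the sorted cells. The Sertoli, endothelial and leukocyte lists fell on the same arrays, with the mean levels given above, and their part in this result was not tested.

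Immediate early genes, many of which dissociation and sorting switch on, fell in 18 of 36 cases and rose in 4. Their median of -0.45 became 0.10 without normalization between arrays, -0.32 relative to all genes. Fosb, an AP-1 subunit, read 12.21 and 11.75 in PGC colonies against 15.77 and 15.07 in sorted cells and fell by 3.44 ± 0.26 (adjusted p = 0.000102). The stress gene Gadd45b fell by 2.56 ± 0.13 and the heat shock gene Hspa1a by 2.45 ± 0.13. Ptgs2, the inducible prostaglandin synthase, rose by 3.58 ± 0.24 (adjusted p = 6.66e-05), and Egr2 and Klf10 by 1.91 ± 0.13 and 1.13 ± 0.13.

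Oxygen-related genes did not move as one. Of 14 HIF and oxygen sensing genes 2 rose and 5 fell, against 22.8% and 23.2% of all genes. Their median was -0.25, or 0.25 without normalization between arrays and -0.17 relative to all genes. Epas1, which encodes HIF-2α, read 10.89 and 10.37 in PGC colonies, 14.39 and 14.46 in GSC colonies and 13.19 and 12.92 in sorted cells. It fell by 2.42 ± 0.20 in PGC colonies (adjusted p = 0.000147) and rose by 1.38 ± 0.20 in GSC colonies (adjusted p = 0.00165), but its other probe gave -0.23 in PGC colonies (adjusted p = 0.69). Hif1a read 11.40 and 11.08 in PGC colonies, 11.63 and 11.90 in GSC colonies and 11.24 and 11.33 in sorted cells and did not pass (adjusted p = 0.845). Cited2, which curbs HIF by taking its coactivator, fell by 1.87 ± 0.12, and Arnt2, a partner subunit, by 1.27 ± 0.11. Egln3, an oxygen sensor that is itself a HIF target, rose by 1.56 ± 0.12 (adjusted p = 0.000127). Of 36 hypoxia response genes 17 rose and 8 fell (median 0.40), or 24 rises and 5 falls without normalization between arrays. The 8 falls were near the share of all genes that fell, 23.2%. Vegfa, the vessel growth factor, read 14.56 and 14.41 in PGC colonies, 14.13 and 14.16 in GSC colonies and 11.59 and 11.43 in sorted cells and rose by 2.98 ± 0.12 (adjusted p = 9.74e-06). Angptl4, a lipase inhibitor, rose by 2.74 ± 0.18, and P4ha2, a collagen prolyl hydroxylase, was at least 3.99-fold higher. Edn1 and Pdgfb, both endothelial growth signals, fell by 2.92 ± 0.13 and 2.20 ± 0.20, and the carbonic anhydrase Car12 by 1.92 ± 0.12.

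Of 15 glycolysis genes 5 rose and 4 fell (median 0.25), or 8 rises and 1 fall without normalization between arrays and 4 rises and 2 falls without sorted replicate 1. The enolase Eno2 rose by 4.32 ± 0.26 (adjusted p = 4.33e-05), with sorted arrays at 8.05 and 8.88, Ldha by 1.24 ± 0.12 and Tpi1 by 1.20 ± 0.14. Ldhb, the lactate dehydrogenase chain of oxidative tissue, fell by 2.24 ± 0.13 (adjusted p = 3.68e-05), so the 2 chains of that enzyme moved in opposite directions. Hexokinase 2, Hk2, fell by 1.03 ± 0.19, a call lost without normalization between arrays, at -0.45. Of 37 genes of oxidative phosphorylation 9 rose and 3 fell (median 0.09), against 22.8% higher and 23.2% lower over all genes. The list without normalization between arrays had 25 rises and 0 falls with a median of 0.59, 0.17 relative to all genes, and without sorted replicates 1 or 2 it had 5 rises and 1 fall or 4 rises and 1 fall. The largest rises were Ndufab1 at 1.16 ± 0.16, Uqcrq at 0.99 ± 0.12 and Ndufb9 at 0.80 ± 0.11, all small subunits of the respiratory chain, and Sdha fell by 0.69 ± 0.13, which was -0.12 and not called without normalization between arrays.

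Many cholesterol synthesis genes were lower in PGC colonies than in the other groups. Of 19 genes 11 fell and 0 rose (median -0.49), where GSC colonies had 5 higher and 4 lower than sorted cells, and 11 were lower in PGC than in GSC colonies, against 7.98% of all genes. The list without normalization between arrays had 3 rises and 5 falls with a median of -0.09, -0.51 relative to all genes. Idi1, the isomerase that makes the activated isoprene unit, read 10.28 and 10.14 in PGC colonies, 11.98 and 11.99 in GSC colonies and 11.99 and 12.04 in sorted cells and fell by 1.80 ± 0.11 (adjusted p = 4.28e-05). Fdft1, squalene synthase, read 11.68 and 11.72 in PGC colonies, 12.82 and 12.84 in GSC colonies and 13.23 and 12.92 in sorted cells and fell by 1.37 ± 0.13 (adjusted p = 0.000297), but differed by -0.22 on its other probe. In both genes the GSC colonies did not pass against the sorted cells. Stard4, a sterol carrier under the same regulator, fell by 1.39 ± 0.11. Of 29 genes of the lysosome 18 rose and 3 fell (median 0.73), or 24 rises and 1 fall without normalization between arrays and 15 rises and 1 fall without sorted replicate 1. Scarb2, a lysosomal membrane protein, rose by 1.97 ± 0.11, the sialidase Neu1 by 1.76 ± 0.11 and Ctsk, the collagen-cutting cathepsin, by 2.42 ± 0.15. Ctsk stood lower than in GSC colonies, with a difference of -3.26 ± 0.15 (adjusted p = 9.45e-05). The cathepsin gene Ctsh fell by 1.41 ± 0.12 (adjusted p = 0.000164).

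Immune process lists were mixed. Over all genes tested 22.8% rose and 23.2% fell, shares near those of the interferon list in PGC colonies. Of 24 genes that interferon induces 5 rose and 6 fell (median -0.00, or 0.44 without normalization between arrays and 0.01 relative to all genes; 4 rises and 2 falls without sorted replicate 2), where GSC colonies had 12 higher and 2 lower. Isg15, a ubiquitin-like modifier, rose by 1.94 ± 0.12, Bst2 (tetherin) by 1.29 ± 0.13 and the factor Irf7 by 0.70 ± 0.14, while the GTPase Gbp3 fell by 1.30 ± 0.13 (adjusted p = 0.000313). Of 16 antigen presentation genes 7 rose and 2 fell (median 0.06), with 4 rises and 2 falls without sorted replicate 1, and the median was -0.02 without PGC colony replicate 1. The peptide carrier genes Tap2 and Tap1 rose by 2.31 ± 0.13 and 1.98 ± 0.33 and the light chain of MHC class I, B2m, by 1.23 ± 0.14, whereas the class II chain H2-Aa fell by 0.85 ± 0.11. Among 21 complement and coagulation genes there were 11 falls and 6 rises (median -0.72). The macrophage products C1qb, which fell by 5.06 ± 0.11, and F13a1, at least 19.03-fold lower, moved with the leukocyte list, whose part in this result was not tested. The anticoagulant receptor Thbd rose by 3.65 ± 0.14, Tfpi2 by 2.25 ± 0.21 and the urokinase receptor Plaur by 2.25 ± 0.11.

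Matrix remodelling genes mostly rose. Of 25 matrix proteases and inhibitors 17 rose and 2 fell (median 1.45). Timp1, an inhibitor of metalloproteinases, read 16.43 and 16.41 in PGC colonies, 16.22 and 16.13 in GSC colonies and 12.91 and 12.83 in sorted cells and rose by 3.55 ± 0.11 (adjusted p = 4.71e-06), Mmp19 by 3.52 ± 0.20, and Serpina3n was at least 7.27-fold higher, with the cystatin Cst3 down by 1.52 ± 0.12. Of 31 genes of the basement membrane and its integrins 15 rose and 7 fell (median 0.49), or 17 rises and 3 falls without normalization between arrays and 12 rises and 4 falls without sorted replicate 2. Lama2, the laminin chain of muscle and mesenchyme, read 12.51 and 12.97 in PGC colonies, 13.69 and 13.57 in GSC colonies and 9.48 and 9.31 in sorted cells and rose by 3.35 ± 0.17 (adjusted p = 2.59e-05), and the collagen IV chain Col4a1 by 1.37 ± 0.11. Lama3, the laminin chain of epithelia, fell by 2.83 ± 0.11 (adjusted p = 1e-05), Nid2 (nidogen) by 1.18 ± 0.12 and Dag1 (dystroglycan) by 1.15 ± 0.15.

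In the TGF-beta and BMP list 18 of 34 genes rose and 5 fell (median 0.61). The activin subunit Inhba read 12.90 and 13.10 in PGC colonies, 13.13 and 13.06 in GSC colonies and 9.23 and 9.24 in sorted cells and rose by 3.77 ± 0.12 (adjusted p = 5.36e-06), while the inhibin subunits Inha and Inhbb, products of Sertoli cells, fell by 2.80 ± 0.15 and 3.25 ± 0.11. Bmp5, a ligand of skeletal and lung mesenchyme, was at least 6.44-fold higher, and among antagonists Fstl1 rose by 3.05 ± 0.11 and Fstl3 fell by 4.36 ± 0.14. In the Wnt list 17 of 33 genes rose and 6 fell (median 0.57). Beside Ccn4 and Rspo3, the secreted modulator Dkk3 rose by 4.86 ± 0.13 (adjusted p = 4.02e-06). The ligand Wnt6 fell by 2.59 ± 0.13, the decoy Sfrp4 by 2.30 ± 0.13 and the receptor Fzd6 by 1.85 ± 0.11. Of 17 DNA methylation genes 3 rose and 4 fell, against 22.8% and 23.2% of all genes. Their median was -0.07, or 0.47 without normalization between arrays and 0.04 relative to all genes. Uhrf1, which brings the maintenance enzyme to newly copied DNA, fell by 1.66 ± 0.11 (adjusted p = 6.17e-05), the demethylating dioxygenase Tet1 by 1.18 ± 0.14 and the maintenance enzyme Dnmt1 by 0.74 ± 0.12, the last not called without normalization between arrays, at -0.24. The binding protein genes Mbd2 and Mbd3 rose by 0.98 ± 0.13 and 0.79 ± 0.12.

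The genes that PGC colonies and GSC colonies moved to opposite sides of the sorted cells were listed next. Both comparisons share the sorted arrays, so values of each are given side by side. Called with opposite signs were 133 genes (0.86% of those tested), 36 higher and 97 lower in PGC colonies, and for 21 of them both differences were at least 2-fold. The count was 60 without sorted replicate 1, 73 without sorted replicate 2 and at most 163 when another array was left out. Among those higher in PGC colonies, Meox2, Mest, Igf2 and Myh8 were described above. Rad51d, a homologous repair factor, read 11.39 and 11.12 in PGC colonies, 7.17 and 7.23 in GSC colonies and 9.01 and 9.16 in sorted cells and rose by 2.17 ± 0.13 in PGC colonies (adjusted p = 4.69e-05), while GSC colonies were at least 2.41-fold lower. Id4, an inhibitor of bHLH factors used as a marker of spermatogonial stem cells, read 10.69 and 10.33 in PGC colonies, 8.02 and 8.20 in GSC colonies and 9.53 and 9.53 in sorted cells, a rise of 0.98 ± 0.15 (adjusted p = 0.00245) beside -1.42 ± 0.15 in GSC colonies (adjusted p = 0.000469). Eya1, a coactivator in muscle, kidney and ear, read 11.55 and 10.94 in PGC colonies, 9.02 and 8.99 in GSC colonies and 10.35 and 10.07 in sorted cells and rose by 1.04 ± 0.21 (adjusted p = 0.00826), a call lost without sorted replicate 2, at 0.90. Klk8, a kallikrein protease, rose by 1.22 ± 0.20 beside -1.13 ± 0.20. The zinc-finger homeobox gene Zfhx4 rose by 0.84 ± 0.15 beside -0.93 ± 0.15, and, as Igf2, left the class without normalization between arrays. Hapln1, which links hyaluronan in cartilage, rose by 1.58 ± 0.22, with both GSC colony arrays under the percentile, but it left the class without GSC colony replicate 2, without either sorted array and at a threshold of 0.01.

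In the other direction Srgn, the proteoglycan of blood and endothelial granules, read 7.69 and 7.67 in PGC colonies, 14.87 and 14.84 in GSC colonies and 10.81 and 10.69 in sorted cells. PGC colonies were at least 7.62-fold lower than sorted cells and GSC colonies 4.10 ± 0.11 higher (adjusted p = 2.32e-06). Fgl2, a membrane prothrombinase of leukocytes and endothelium, read 8.59 and 8.40 in PGC colonies, 14.36 and 14.42 in GSC colonies and 9.80 and 9.75 in sorted cells, a fall of 1.27 ± 0.12 (adjusted p = 0.000232) beside 4.62 ± 0.12 in GSC colonies. Emcn, a sialomucin of veins and capillaries, read 10.79 and 10.87 in PGC colonies, 13.61 and 13.59 in GSC colonies and 12.30 and 12.38 in sorted cells, a fall of 1.51 ± 0.11 (adjusted p = 7.85e-05) beside 1.26 ± 0.11. Esr1, the oestrogen receptor of interstitial and duct cells, read 8.35 and 8.15 in PGC colonies, 11.08 and 10.94 in GSC colonies and 9.77 and 9.64 in sorted cells, a fall of 1.46 ± 0.13 (adjusted p = 0.00019) beside 1.30 ± 0.13. For these genes no array of one group crossed into another. In this paragraph the value after "beside" is a rise in GSC colonies over the sorted cells. The receptor gene Adgrg2 of the epididymal duct fell by 1.62 ± 0.12 beside 2.08 ± 0.12, the protease inhibitor gene Ctla2b by 1.63 ± 0.13 beside 3.16 ± 0.13, and the lectin gene Lgals9 by 1.30 ± 0.12 beside 1.26 ± 0.12. With the mean of its probes the fall of Lgals9 was -0.67. The vasodilator gene Adm, a HIF target, fell by 1.23 ± 0.14 beside 1.39 ± 0.14, the same pattern as the brightest probe of Epas1. The other probe of Epas1 gave -0.23 in PGC colonies and 0.48 in GSC colonies against the sorted cells. Mageb4, an X-linked germ cell gene, was at least 1.17-fold lower than in sorted cells and 1.36 ± 0.16 in GSC colonies.

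**Figure D3:**
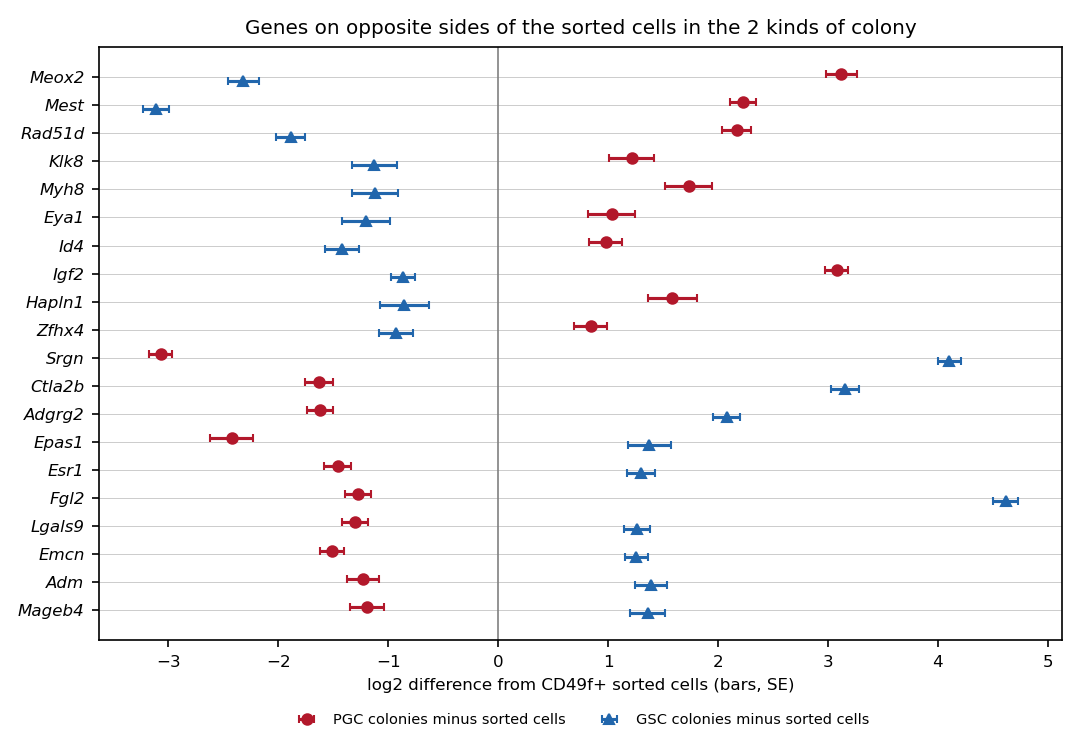
Log2 difference from CD49f+ sorted cells in PGC colonies (red circles) and in GSC colonies (blue triangles) for the 20 named genes called with opposite signs, with bars of 1 SE from the limma fit on 6 arrays. Mest has PGC and GSC differences of 2.23 and -3.11, and every red circle lies on the other side of the zero line from its blue triangle. Differences of Rad51d, Myh8, Hapln1, Srgn and Mageb4 involve a group under the 30th percentile and understate the change. For Meox2 only 1 GSC colony array lay under it, and its difference may understate the change.

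A further 154 genes (0.996%) moved in PGC colonies alone, which means a called difference from sorted cells of at least 2-fold, a called difference from GSC colonies of the same sign, and GSC colonies uncalled and less than 0.5 from the sorted cells. Of these 100 were higher and 54 lower in PGC colonies. Beside Actc1, Myl1, Itgax and Sox2, Zic1, a zinc-finger factor of neural crest, somites and some mesenchyme, read 13.06 and 12.98 in PGC colonies, 8.84 and 8.28 in GSC colonies and 8.28 and 8.62 in sorted cells and rose by 4.57 ± 0.21 (adjusted p = 1.64e-05). Zcchc12, a coactivator known from brain, read 13.07 and 13.31 in PGC colonies, 9.89 and 9.26 in GSC colonies and 9.35 and 9.22 in sorted cells and rose by 3.90 ± 0.22 (adjusted p = 3.37e-05). Sstr2, a somatostatin receptor, rose by 3.47 ± 0.20, and Klk10, a kallikrein, was at least 5.35-fold higher. Among those lower, Crip1, a small LIM protein, read 10.21 and 10.06 in PGC colonies, 12.56 and 12.77 in GSC colonies and 12.65 and 12.62 in sorted cells and fell by 2.50 ± 0.12 (adjusted p = 2.2e-05). The fatty acid carrier Fabp4, of capillaries and fat, read 9.72 and 9.42 in PGC colonies, 11.75 and 11.995 in GSC colonies and 11.86 and 11.84 in sorted cells and fell by 2.28 ± 0.15 (adjusted p = 5.79e-05). In Zic1, Zcchc12, Crip1 and Fabp4 the GSC colony and sorted arrays overlapped. Slfn2, a schlafen of lymphocytes, fell by 2.35 ± 0.12, the glutathione transferase Gstt2 by 2.24 ± 0.12, and Gucy1a1, a subunit of the nitric oxide receptor, by 2.18 ± 0.19. The ectonucleotidase Entpd1 read 7.85 and 7.74 in PGC colonies, 9.84 and 9.96 in GSC colonies and 9.94 and 10.01 in sorted cells, with 1 PGC colony array under the 30th percentile. Prxl2a, a redox protein, fell by 2.15 ± 0.22 and Glul, glutamine synthetase, by 1.95 ± 0.14. Membership requires an uncalled difference in GSC colonies, and Zcchc12, Glul, Actc1 and Itgax left the class when 1 GSC colony array was removed, and Actc1 and Gucy1a1 when 1 sorted array was. Without normalization between arrays Zcchc12, Itgax, Myl1, Klk10, Crip1, Fabp4, Gstt2 and Entpd1 left it, 8 of the 16 named for it, and 38 of the 154 genes remained.

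The converse class, 162 genes (1.05%) that moved in GSC colonies alone, holds genes that PGC colonies did not follow, 117 higher and 45 lower. Without GSC colony replicate 2 it held 351 genes. Gpx3, a secreted glutathione peroxidase, read 11.65 and 11.73 in PGC colonies, 17.22 and 17.18 in GSC colonies and 11.79 and 11.83 in sorted cells, and the PGC colonies were -0.12 ± 0.10 from the sorted cells (adjusted p = 0.386), or 0.39 and called without normalization between arrays, as was Lbp at 0.38. Prl8a2, a prolactin-family hormone of the decidua, read 7.21 and 7.09 in PGC colonies, 14.86 and 15.03 in GSC colonies and 7.11 and 7.29 in sorted cells, so that it was under the 30th percentile in PGC colonies and sorted cells alike. Lbp, which binds bacterial endotoxin, read 8.79 and 9.02 in PGC colonies, 13.76 and 13.69 in GSC colonies and 9.02 and 8.81 in sorted cells, Serping1, the inhibitor of the first complement component, 9.23 and 9.34 in PGC colonies, 13.13 and 13.25 in GSC colonies and 9.48 and 9.28 in sorted cells, and Scn7a, a sodium channel gene of glia and smooth muscle, 7.78 and 8.02 in PGC colonies, 11.84 and 11.89 in GSC colonies and 7.96 and 7.93 in sorted cells. In these 5 genes the PGC colonies lay with the sorted cells and the GSC colonies stood apart, at 11.84 and above. Tcf23, a bHLH factor, Erv3, an endogenous retroviral gene, and Serpinb6c, a protease inhibitor, read 12.72 and 12.52, 10.58 and 10.66 and 12.67 and 12.41 in GSC colonies and 7.69 and 7.85, 6.54 and 6.51 and 8.11 and 9.51 in PGC colonies. Tcf23 left the class without sorted replicate 2 and without PGC colony replicate 1. It also left with values floored at 16 in place of normexp and with a normexp offset of 16. Without normalization between arrays the PGC colonies were called higher for it. Serpinb6c left the class without PGC colony replicate 2 and without sorted replicate 1. Lower in GSC colonies alone were Clec14a, an endothelial lectin, at 9.96 and 9.73 in PGC colonies, 7.63 and 7.79 in GSC colonies and 9.84 and 9.93 in sorted cells, and Wif1, a Wnt inhibitor, at 9.88 and 10.23 in PGC colonies, 8.12 and 7.91 in GSC colonies and 9.77 and 10.16 in sorted cells. Ebf3, Capn6, Ptprv, Fam155a, Adamts9 and Pan2 followed the same pattern, with PGC colonies between -0.34 ± 0.24 and 0.00 ± 0.12 from sorted cells. Adamts9 and Pan2 left the class at a threshold of 0.01 and when either PGC colony array was left out. Wif1 left it without normalization between arrays. Ptprv was called lower in PGC colonies without PGC colony replicate 1, at -0.42, and Fam155a higher without normalization between arrays, at 0.51.

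**Figure D4:**
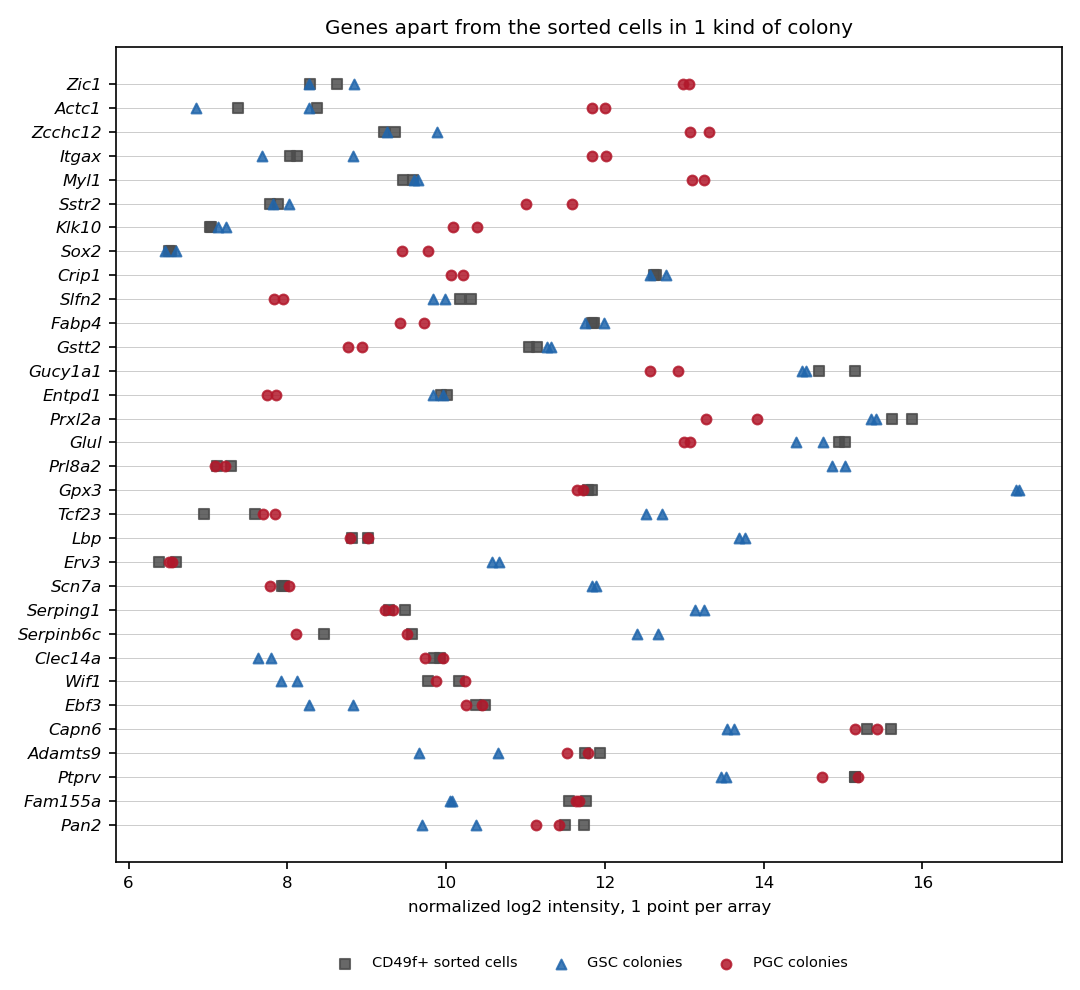
Normalized log2 intensity of the 32 named genes that differed from CD49f+ sorted cells in one kind of colony alone, 1 point per array, with 2 arrays per group. In the upper 16 rows the red circles (PGC colonies) stand apart, as for Zic1 at 13.06 and 12.98, and in the lower 16 the blue triangles (GSC colonies) do, as for Gpx3 at 17.22 and 17.18.

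X- and Y-linked transcripts were read because the labels give no sex for the embryos. Xist, the RNA that coats the inactive X of female cells, read 8.84 and 8.75 in PGC colonies, 7.76 and 7.87 in GSC colonies and 8.20 and 8.11 in sorted cells, close to the filter's level of 7.82 on all arrays. It rose by 0.64 ± 0.11 in PGC colonies (adjusted p = 0.0037) and was lower than in sorted cells in GSC colonies (adjusted p = 0.043), where 1 array lay under that level. Eif2s3y, a Y-linked translation factor, read 11.43 and 11.10 in PGC colonies, 11.99 and 12.32 in GSC colonies and 12.10 and 12.09 in sorted cells and fell by 0.83 ± 0.17 (adjusted p = 0.00726), and Uty, a Y-linked demethylase, by 0.71 ± 0.12. Without normalization between arrays both calls were lost, at -0.30 and -0.27. Of the 6 measured genes of the list, 1 rose and 4 fell (median -0.44). In GSC colonies 0 were higher and 1 lower than in sorted cells. Without normalization between arrays none of the falls in PGC colonies was called. The list then had 1 rise and 0 falls with a median of -0.03, -0.45 relative to all genes.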

How the data were processed

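RNA of PGC colonies, GSC colonies and CD49f+ sorted cells (2 arrays each) was extracted with Trizol, amplified and hybridised to single-colour Phalanx OneArray slides, per the labels' protocols. The deposited values are linear probe intensities, given per array. Their scaling is not given in the sources used here; as their medians differed, they were treated as not normalized between arrays. Some are below 0, so a background had been subtracted, by a method not given in the sources used here. With 2 arrays per group, the number of arrays limits the precision.

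Here the intensities were corrected with normexp (offset 50), taken to log2 and quantile normalized in limma 3.58.1 (R 4.3.3), with figures from matplotlib 3.10.9. Symbols came from the platform annotation: of 26423 probes 21876 had 1 symbol, 0 had several and 4547 had none. Each gene kept its brightest probe. The fit (lmFit, eBayes) used 1 mean per group over all 6 arrays, with Benjamini-Hochberg adjustment over 15459 genes at 0.05. Normal values were also simulated with the fit's own spread per gene and few genes changed. There it recovered 9 of 67 changes of 1.5-fold, 53 of 67 of 2-fold and 64 of 66 of 4-fold. It made 9 false calls among 15259 unchanged genes. In the real comparison 46% of genes were called, so the adjustment differs and these shares need not hold there.

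A lower bound on a fold sets the brighter group's mean against the 30th percentile, or against the dimmer group's own level where that is higher. The 37 gene lists (15 of cell types, 22 of processes) hold 1028 entries, of which 944 are on the array and 869 were measured. Members and lists were chosen with earlier results of these data known, so a list's count is no independent evidence. Named genes were the 12 largest rises and 12 largest falls without overlap, 10 opposed genes in each direction, 8 genes of each one-colony class and direction, up to 3 rises and 3 falls of each list, 13 genes of interest, and list members that did not pass; clone-like names were left out. Genes named for other reasons are marked as chosen after their values were seen. The alternatives tried concern background, normalization, the dim-gene filter, several probes per gene, the spread estimate, the threshold, the arrays fitted and the replicate number as a block.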

Additional observations from a re-analysis of the deposited data

Results flagged for a closer look

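Both kinds of colony lay on opposite sides of the sorted cells in 133 genes. These genes were chosen because both differences from the sorted arrays were called with opposite signs, so the size of the difference between the colonies is the sum of those already called. Its own limma call, made for 133 of 133, was close to fixed by that choice and is a description only. For the named genes higher in PGC colonies it was 5.44 for Meox2, 5.34 for Mest, 4.06 for Rad51d, 3.95 for Igf2, 2.85 for Myh8, 2.44 for Hapln1, 2.40 for Id4, 2.34 for Klk8, 2.24 for Eya1 and 1.77 for Zfhx4. For those lower in PGC colonies it was -7.17 for Srgn, -5.89 for Fgl2, -4.78 for Ctla2b, -3.80 for Epas1, -3.70 for Adgrg2, -2.77 for Emcn, -2.76 for Esr1, -2.62 for Adm, -2.56 for Lgals9 and -2.55 for Mageb4. The values of Rad51d, Myh8, Hapln1, Srgn and Mageb4 understate the change, since 1 group lay under the 30th percentile. That of Meox2 may do so, since 1 GSC colony array lay under it. The value of Epas1 is from its brightest probe, and its other probe gave -0.72, which did not pass.

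Probes without a gene symbol also carried signal: of 2295 tested, 385 (16.8%) were called between PGC colonies and sorted cells, 177 higher and 208 lower.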

How the results depend on the processing

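The scaling between arrays moved the split of higher against lower genes. Without normalization between arrays 7574 genes were higher and 1838 lower in PGC colonies, in place of 3517 and 3594, and of the 251 genes named 11 lost their call, 8 gained one and 3 turned: Gpx3 to 0.39, Lbp to 0.38 and Mmp2 to 0.077. That alternative leaves the arrays' unequal medians in place. With probes averaged per gene Mki67 turned to -0.95. At a threshold of 0.01 the opposed genes numbered 73.

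When 1 array was left out, the group of the remaining array is assumed to vary like the others. The called genes then numbered 5039 to 7051, with 2613 to 3494 higher and 2426 to 3557 lower, and those called and at least 2-fold different 2988 to 3117. The lowest counts came without a sorted array (5104 without replicate 1 and 5039 without replicate 2). Opposed genes ranged from 60 to 163, genes moved in PGC colonies alone from 108 to 214, and in GSC colonies alone from 164 to 351, the last without GSC colony replicate 2. The members changed too, most without normalization between arrays. There 50 of the 133 opposed genes remained, with 38 of the 154 moved in PGC colonies alone and 43 of the 162 moved in GSC colonies alone. These were the lowest of all alternatives. In every alternative other than the threshold and the left-out arrays 43 opposed genes stayed. So did 18 moved in PGC colonies alone and 40 moved in GSC colonies alone. The cause of these shifts was not tested. Of the 37 lists, 19 had more rises than falls, and 19 to 20 did when 1 array was left out. Without normalization between arrays 24 did.

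With the replicate number as a block 6637 genes were called (3282 higher, 3355 lower) and 113 were opposed; of the named genes it ended the call of Mmp2 alone. The labels do not say that the number pairs arrays, and the deviations of same-numbered arrays correlated across genes at 0.33 between PGC colonies and sorted cells, -0.18 between both kinds of colony and -0.34 between GSC colonies and sorted cells. Genes near the 30th percentile are limited by signal over background.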
